A study of Mus musculus with 6 samples.

Results

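The 10 genes described here encode major histocompatibility complex (MHC) class I molecules and the machinery that loads them with peptide, and all 10 were found by symbol among the 23224 genes of the deposited table. They are the heavy chains H2-K1, H2-D1, H2-T23 and H2-Q4, the light chain B2m, the peptide transporter subunits Tap1 and Tap2, the loading chaperone Tapbp and the proteasome subunits Psmb8 and Psmb9. RNA was sequenced in 3 libraries labelled SOX17KO and 3 labelled Control. Both groups were mouse AKP organoids, three-dimensional epithelial cultures grown from tumours that had formed in vivo, and SOX17 was deleted with CRISPR-Cas9 in the first group. The labels do not spell out the AKP alleles, the mouse strain, or whether replicates stem from separate clones or cultures, so p-values measure only the spread between these samples. SOX17 is a transcription factor known from the formation of endoderm.

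MHC class I molecules display peptides from inside the cell at its surface, where CD8+ T cells inspect them. Proteasomes cut proteins into peptides, the Tap1 and Tap2 transporter carries the peptides into the endoplasmic reticulum, and tapasin holds the empty heavy and light chain dimer beside the transporter until a peptide binds. Interferon gamma raises most of these genes together, in part through IRF1 and the class I transactivator NLRC5, and exchanges the standard catalytic proteasome subunits for the inducible ones. Loss of this pathway is a known way for tumours to escape T cells.

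Interferon and NF-kappaB act on class I genes through short motifs upstream of their starts, so the stretches before 5 of these genes and between Tap1 and Psmb9 are shown. The sequences are RefSeq promoter windows on GRCm38.p6, a later build than the mm9 that the submitters' processing notes name, matched by symbol for 9 of the 10 genes. Each is written 5′ to 3′ and ends at the base before the annotated start. Capitals mark matches on either strand to an NF-kappaB type motif (GGG, 2 free bases, TT, 1 free base, CC), to GAANNGAAA (an interferon-response type motif) or to CCAAT.
H2-K1, chr17:34000348-34000527, - strand: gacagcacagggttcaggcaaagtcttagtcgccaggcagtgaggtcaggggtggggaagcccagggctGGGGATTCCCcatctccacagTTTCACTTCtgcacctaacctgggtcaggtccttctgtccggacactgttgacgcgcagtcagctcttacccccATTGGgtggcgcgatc
H2-D1, chr17:35262914-35263093, + strand: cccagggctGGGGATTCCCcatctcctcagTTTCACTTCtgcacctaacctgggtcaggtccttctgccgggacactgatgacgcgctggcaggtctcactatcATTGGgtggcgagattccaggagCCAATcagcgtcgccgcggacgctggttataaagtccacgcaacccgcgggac
H2-Q4, chr17:35379437-35379616, + strand: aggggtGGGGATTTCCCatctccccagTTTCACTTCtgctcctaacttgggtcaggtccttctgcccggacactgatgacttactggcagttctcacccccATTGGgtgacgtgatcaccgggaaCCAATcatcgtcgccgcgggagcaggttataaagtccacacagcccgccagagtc
H2-T23, chr17:36032702-36032881, - strand: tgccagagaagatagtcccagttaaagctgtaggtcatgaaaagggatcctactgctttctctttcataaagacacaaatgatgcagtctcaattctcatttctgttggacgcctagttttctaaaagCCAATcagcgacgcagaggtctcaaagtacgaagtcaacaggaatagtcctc
B2m, chr2:122147507-122147686, + strand: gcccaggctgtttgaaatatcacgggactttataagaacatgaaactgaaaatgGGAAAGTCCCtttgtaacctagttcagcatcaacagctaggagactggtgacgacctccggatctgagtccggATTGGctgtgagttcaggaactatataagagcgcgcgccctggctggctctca
Between Psmb9 and Tap1, chr17:34187331-34187555, + strand: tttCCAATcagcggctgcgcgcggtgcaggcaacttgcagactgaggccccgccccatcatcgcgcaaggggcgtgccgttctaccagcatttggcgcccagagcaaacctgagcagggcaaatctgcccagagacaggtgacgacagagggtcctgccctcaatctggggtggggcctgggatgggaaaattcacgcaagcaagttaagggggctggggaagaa

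In H2-K1, H2-D1 and H2-Q4 the interferon-response type match began 21 bases after the NF-kappaB type match began. In H2-Q4, 2 matches to the NF-kappaB type motif overlapped. The RefSeq windows of H2-K1 and H2-D1 were identical at 206 of 228 aligned positions (90.4%). Those of H2-D1 and H2-Q4 were identical at 238 of 301 (79.1%). The block of both motifs lies closer to the annotated start in H2-K1 than in H2-D1 or H2-Q4. By these spellings the H2-T23 stretch held only a CCAAT match, and the B2m stretch an NF-kappaB type and a CCAAT match. A longer interferon-response spelling (GAAA, 2 free bases, GAAA), searched after the sequences were seen and not capitalised, was in H2-T23 and B2m, 2 of 9 genes, and in 3.04% of promoters. Tap1 and Psmb9 are transcribed away from each other from starts 225 bases apart, and that interval held 1 CCAAT match. Over the 250 bases before the start, the NF-kappaB type motif was in 4 of the 9 genes and in 4.0% of 27025 promoters. The interferon-response type motif was in 3 of the 9 and in 6.34% of promoters, and CCAAT in 8 of the 9 and in 34.5%. The matches in the alike windows of H2-K1, H2-D1 and H2-Q4 were each counted, so these shares do not rest on unrelated sequences. The CCAAT match between Tap1 and Psmb9 is a single site that was counted for both genes. ACAAT, a core letter run of SOX motifs, was in 0 of the 9 and in 28.3% of promoters. A match is a run of letters and not a measured binding site.

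The authors' values are RSEM expected counts, which share out reads that fit several genes. The libraries held 18290912 to 24765258 counts in SOX17KO and 21238718 to 27503254 in Control. Levels are given in CPM, counts scaled to a common library size with TMM factors. Sox17, the targeted gene, had 33.8, 41.9 and 45.1 CPM in libraries labelled SOX17KO, against 34.4, 34.5 and 34.2 CPM in Control, so its RNA level does not check the labels. Correlations of log2 CPM over tested genes were 0.960 and 0.963 between SOX17KO replicate 1 and the other SOX17KO libraries, 0.986 between those, and 0.994 to 0.995 among Control libraries. SOX17KO replicate 1 thus stood apart, and the main results that rest on it are given with and without it. The epithelial marker Vil1 was at 321 CPM or more in every SOX17KO library and at 319 CPM or more in every Control library. Epcam, Cdh1 and Krt8 were higher still, and Krt20 was below 1 CPM. In bulk samples fewer cells of a type and less RNA per cell cannot be told apart.

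None of the 10 genes was called higher or lower in the libraries labelled SOX17KO. EdgeR's quasi-likelihood test with Benjamini-Hochberg adjustment over 12137 tested genes called 831 (6.85%) at an adjusted p below 0.05, of which 3.67% of tested genes were higher and 3.17% lower. All 10 genes passed the low-count filter. Among them 6 had a positive log2 fold change and 4 a negative one, with a median of 0.012, against 0.014 over all tested genes. None had an unadjusted edgeR p below 0.05, as 20.3% of tested genes did, and limma-voom and DESeq2 also called 0. In none did the groups fail to overlap, as they did for 28.2% of tested genes (14.0% above and 14.2% below). The means of the 8 genes other than Psmb8 and Psmb9 lay close together in both groups, while single SOX17KO libraries lay well above or below Control.

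**Figure D1:**
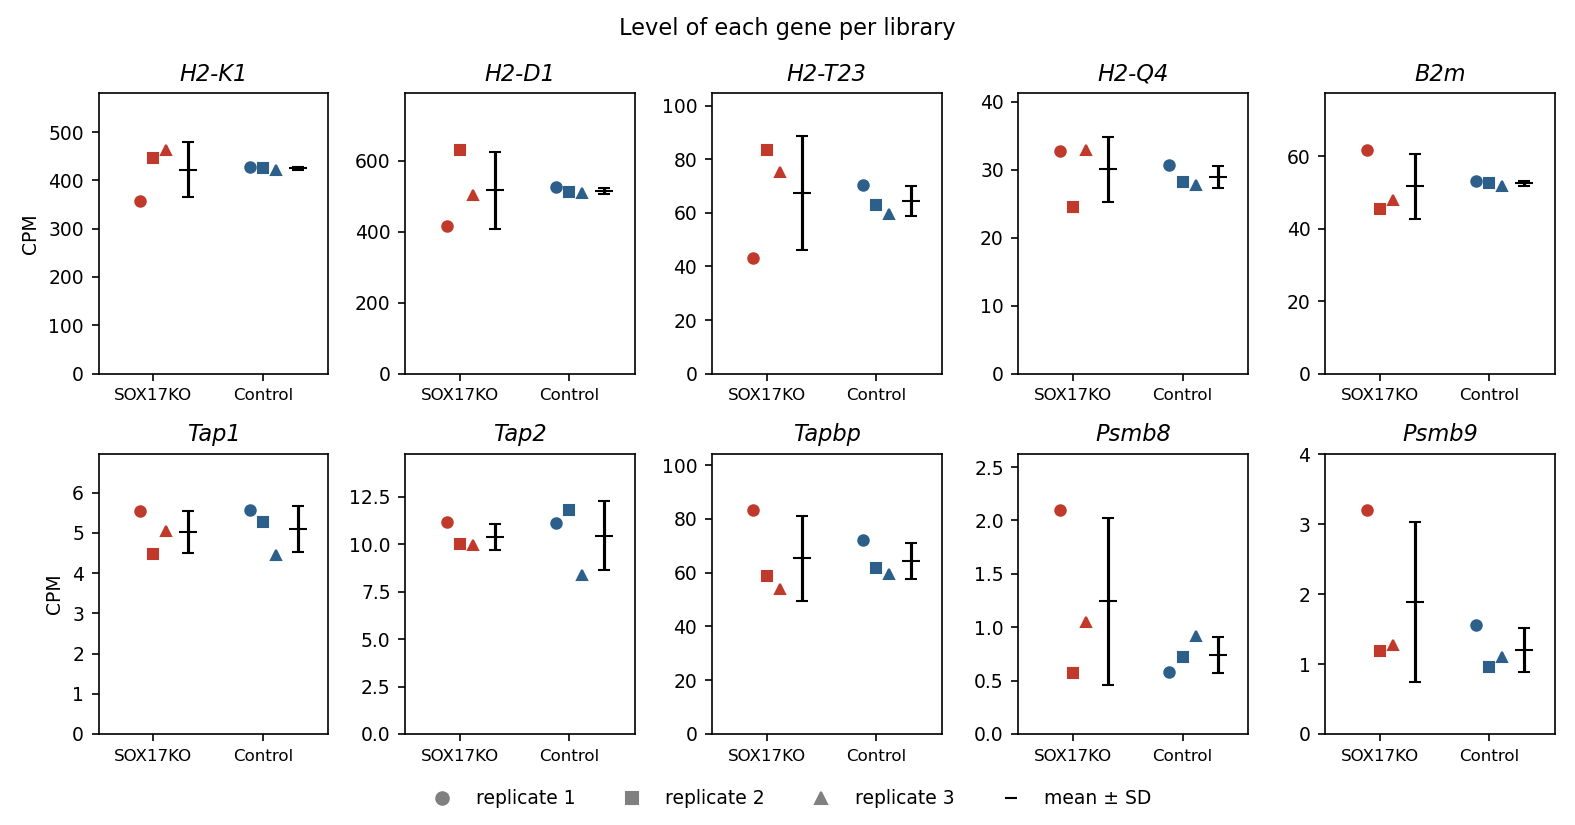
CPM of the 10 genes in each library, with SOX17KO libraries in red, Control libraries in blue, symbols for replicate numbers and bars for mean ± SD (n = 3). The groups overlap in every panel, and SOX17KO replicate 1 is lowest for H2-K1, H2-D1 and H2-T23 and highest for B2m, Tapbp, Psmb8 and Psmb9.

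H2-K1 and H2-D1 are the classical heavy chains that present peptides to CD8+ T cells. In replicate order 1, 2 and 3, H2-K1 was at 357, 446 and 464 CPM in SOX17KO, against 428, 425 and 421 CPM in Control. SOX17KO replicate 1 was below and the other SOX17KO libraries above all Control libraries. The means were 422 ± 57.4 CPM in SOX17KO and 425 ± 3.87 CPM in Control (SD, n = 3), a ratio of 0.994 with a 95% interval of 0.830 to 1.19 (edgeR adjusted p = 0.980). H2-D1 was at 416, 631 and 502 CPM in SOX17KO, against 525, 513 and 509 CPM in Control. Here SOX17KO replicate 2 alone exceeded Control. The means were 517 ± 108.2 CPM in SOX17KO and 516 ± 8.63 CPM in Control, a ratio of 1.00 with a 95% interval of 0.787 to 1.28 (edgeR adjusted p = 0.996). The interval of H2-D1 was the wider.

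H2-T23 encodes Qa-1, a non-classical heavy chain that presents leader peptides of other class I chains to inhibitory receptors of natural killer and T cells. It was at 43.2, 83.7 and 75.5 CPM in SOX17KO, against 70.6, 63.2 and 59.5 CPM in Control. SOX17KO replicate 1 lay below and replicates 2 and 3 above every Control library. The log2 fold change was 0.07 ± 0.23 (SE), with a 95% interval of -0.48 to 0.61 (edgeR adjusted p = 0.928). Without SOX17KO replicate 1 it was called higher, by 0.30 on the log2 scale (edgeR adjusted p = 0.0288), in a fit that called 22.8% of tested genes and 12.2% as higher. It was the 1 of the 10 genes that any of the alternatives called. H2-Q4, a heavy chain of the Q region, was at 32.7, 24.5 and 33.0 CPM in SOX17KO, against 30.7, 28.2 and 27.8 CPM in Control (log2 fold change 0.06, 95% interval -0.26 to 0.37, edgeR adjusted p = 0.879). In this gene SOX17KO replicate 2 was the low library.

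Summed over the 4 heavy chain genes, the level was 849, 1186 and 1074 CPM in SOX17KO, against 1055, 1029 and 1017 CPM in Control. The ratio of the group means was 1.00, with SOX17KO replicate 1 below every Control library and replicates 2 and 3 above. H2-K1 and H2-D1 gave 89.9% to 91.1% of that sum in SOX17KO and 90.4% to 91.4% in Control. Splits of shared reads among these 4 genes cancel in the sum, while splits with genes outside it do not. Expected counts of all 4 genes were not whole in any of the 6 libraries. In GENCODE M21 transcripts, 50-base windows that also occur in another gene of the table made up 8.79% of the longest H2-K1 transcript, 14.1% of H2-D1, 18.1% of H2-T23 and 24.3% of H2-Q4. H2-K1 shared most with H2-D1 (6.94%), inside the sum. H2-D1 and H2-T23 shared most with H2-Q1 (7.4% and 7.87%), and H2-Q4 with H2-Q6 (7.68%), outside it. Reads from such windows cannot be assigned to 1 gene by sequence alone. The error this gives the single values and the sum was not measured.

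B2m encodes the invariant light chain that pairs with class I heavy chains, which mostly need it to reach the surface. It was at 61.9, 45.4 and 47.8 CPM in SOX17KO, against 53.1, 52.7 and 51.7 CPM in Control. SOX17KO replicate 1 was the highest of the 6 libraries and the other SOX17KO libraries the lowest, the reverse of H2-K1 and H2-T23. The means were 51.7 ± 8.89 CPM in SOX17KO and 52.5 ± 0.710 CPM in Control, a ratio of 0.986 with a 95% interval of 0.803 to 1.21 (edgeR adjusted p = 0.956). No 50-base window of B2m was shared with another gene of the table, yet its expected counts were not whole in 5 of the 6 libraries. The source of those fractions was not tested.

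Tap1 and Tap2, which form the peptide transporter, were low throughout. Tap1 was at 5.53, 4.48 and 5.04 CPM in SOX17KO, against 5.57, 5.26 and 4.45 CPM in Control (log2 fold change -0.02, 95% interval -0.43 to 0.39, edgeR adjusted p = 0.968). Tap2 was at 11.2, 10.01 and 9.98 CPM in SOX17KO, against 11.1, 11.8 and 8.41 CPM in Control (log2 fold change -0.01, 95% interval -0.38 to 0.36, edgeR adjusted p = 0.989). Both genes varied no more between SOX17KO libraries than between Control libraries. Tapbp encodes tapasin, which joins the transporter to the empty class I dimer. It was at 83.4, 58.8 and 53.9 CPM in SOX17KO, against 72.0, 61.8 and 59.5 CPM in Control (log2 fold change 0.02, 95% interval -0.39 to 0.43, edgeR adjusted p = 0.968). SOX17KO replicate 1 was above all Control libraries and replicates 2 and 3 below them.

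Psmb8 and Psmb9 encode inducible catalytic subunits of the immunoproteasome and were near the limit of detection. Psmb8 had 55, 13 and 19 counts in SOX17KO replicates 1, 2 and 3, against 16, 15 and 24 counts in Control replicates 1, 2 and 3, which is 2.099, 0.571 and 1.05 CPM against 0.579, 0.718 and 0.913 CPM. Psmb9 had 84, 27 and 23 counts in SOX17KO, against 43, 20 and 29 counts in Control, which is 3.21, 1.19 and 1.27 CPM against 1.56, 0.957 and 1.10 CPM. In both genes SOX17KO replicate 1 was the highest library and the other SOX17KO libraries lay within or close to the Control range. The log2 fold changes were 0.76 ± 0.49 (SE) for Psmb8 and 0.65 ± 0.45 (SE) for Psmb9 (edgeR adjusted p = 0.471 and 0.503). Without SOX17KO replicate 1 they were 0.11 and 0.01. Their 95% intervals of -0.40 to 1.93 and -0.40 to 1.71 leave room for a rise of 2-fold or more at this depth.

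**Figure D2:**
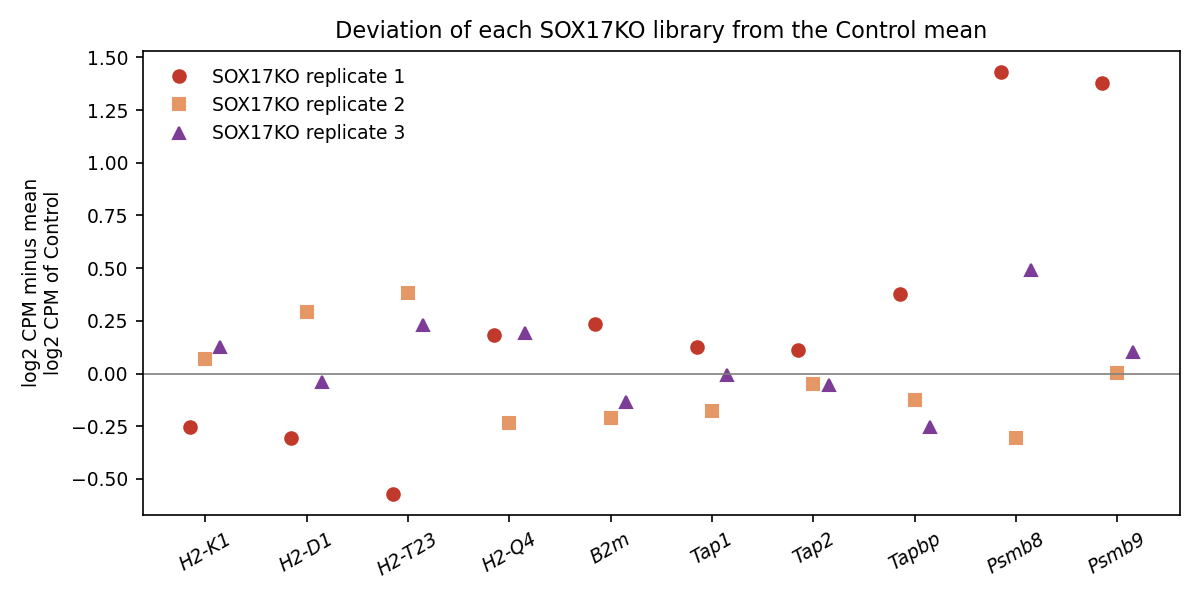
Difference in log2 CPM between each SOX17KO library and the Control mean, for each of the 10 genes on the horizontal axis. Replicate 1 lies at -0.25, -0.31 and -0.57 for H2-K1, H2-D1 and H2-T23 and at 1.43 and 1.38 for Psmb8 and Psmb9, and the zero line is the Control mean.

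SOX17KO libraries differed more from each other than Control libraries did in 8 of the 10 genes, Tap1 and Tap2 being the exceptions. Most tested genes did so too. Their coefficient of variation in SOX17KO over that in Control had a median of 2.33, and 84.4% exceeded the 0.928 of Tap1. Without SOX17KO replicate 1, SOX17KO varied more than Control in 5 of the 10, and H2-T23, Tapbp and Psmb9 varied less. That comparison sets 2 SOX17KO libraries against 3 Control libraries, and its share over all tested genes was not counted. The coefficient of variation was 13.6% in SOX17KO and 0.912% in Control for H2-K1, 20.9% and 1.67% for H2-D1, and 17.2% and 1.35% for B2m. Over SOX17KO replicates 2 and 3 alone it was 2.79% for H2-K1, 16.2% for H2-D1 and 3.72% for B2m. Over all tested genes the medians were 14.1% in SOX17KO (7.47% without replicate 1) and 6.06% in Control. The quotient of the 2 coefficients was larger than that of H2-K1 in 2.75% of tested genes, than that of B2m in 3.83% and than that of H2-D1 in 3.96%. For the rest of the 10 genes that share was 30.8% (H2-T23), 40.3% (H2-Q4), 42.7% (Psmb8), 49.8% (Tapbp), 49.9% (Psmb9), 84.4% (Tap1) and 96.9% (Tap2). These quotients use all 3 SOX17KO libraries and were not tested. SOX17KO replicate 1 was the lowest of the 6 libraries for H2-K1, H2-D1 and H2-T23, as it was for 30.8% of tested genes, and the highest for B2m, Tapbp, Psmb8 and Psmb9, as it was for 30.1%. Light and heavy chains therefore stood in different proportion in that library. Per transcript length, B2m was at 15.4%, 8.16% and 9.35% of the 4 heavy chains summed in SOX17KO replicates 1, 2 and 3, against 10.7%, 10.8% and 10.8% in Control.

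**Figure D3:**
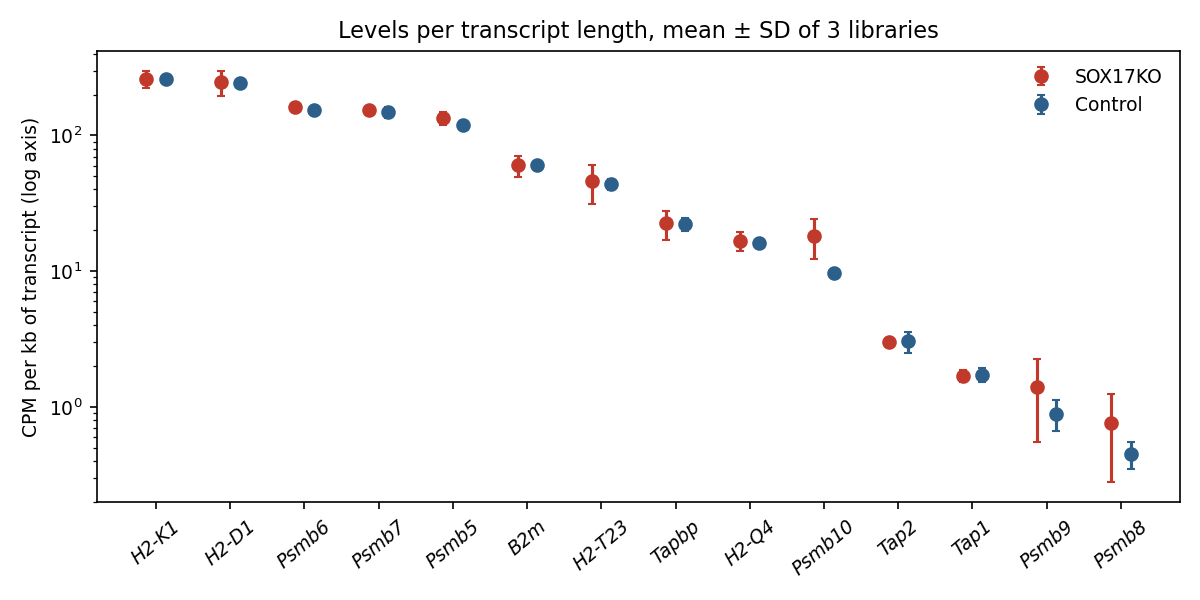
Mean level in CPM per kilobase of transcript, on a log axis, for the 10 genes and for Psmb5, Psmb6, Psmb7 and Psmb10, with SD bars over 3 SOX17KO libraries in red and 3 Control libraries in blue. H2-K1 and H2-D1 stand at 245 to 262 CPM per kilobase and Psmb8 below 1.

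Levels of different genes were compared per kilobase of the longest protein-coding transcript in GENCODE M21. H2-K1 was at 261 ± 35.5 CPM per kilobase in SOX17KO and 262 ± 2.39 in Control, and H2-D1 at 246 ± 51.5 and 245 ± 4.11. These neighbours in the order did not differ beyond their spread in SOX17KO. B2m followed at 60.1 ± 10.34 in SOX17KO and 61.0 ± 0.826 in Control, and H2-T23 at 45.8 ± 14.5 and 43.8 ± 3.83, which overlap in SOX17KO. Tapbp was at 22.6 ± 5.45 in SOX17KO and 22.2 ± 2.30 in Control, and H2-Q4 at 16.8 ± 2.68 and 16.1 ± 0.883. Tap2 was at 3.02 ± 0.198 and 3.04 ± 0.525, and Tap1 at 1.70 ± 0.179 and 1.73 ± 0.196. Psmb9 was at 1.40 ± 0.845 and 0.892 ± 0.231, and Psmb8 last, at 0.762 ± 0.480 and 0.452 ± 0.103. RNA of H2-K1 and H2-D1 was thus abundant, and that of Tap1, Tap2, Psmb8 and Psmb9 scarce. The standard subunit Psmb5, which Psmb8 replaces, was at 134 ± 13.8 CPM per kilobase in SOX17KO and 120.2 ± 8.53 in Control. Psmb8 came to 0.899%, 0.250% and 0.548% of Psmb5 in SOX17KO, against 0.314%, 0.375% and 0.432% in Control. Psmb9 came to 1.49%, 0.515% and 0.609% of Psmb6 in SOX17KO, against 0.789%, 0.474% and 0.495% in Control.

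The third inducible subunit, Psmb10, was higher than the other inducible subunits. It came to 16.3%, 10.22% and 9.02% of Psmb7, the subunit it replaces, in SOX17KO, against 7.39%, 6.19% and 6.14% in Control. Its level was 32.9, 21.4 and 17.8 CPM in SOX17KO, against 12.955, 12.2 and 12.9 CPM in Control, and the groups did not overlap. The log2 fold change was 0.92 ± 0.22 (SE) and narrowly missed the threshold (edgeR adjusted p = 0.0555). It was called higher with DESeq2 (adjusted p = 0.00278), without SOX17KO replicate 1 (edgeR adjusted p = 0.00185) and without SOX17KO replicate 3 (edgeR adjusted p = 0.0315). Psmb10, Psme1, Psme2, Erap1 and Rfx5 were singled out after their values were seen.

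Of 12 cofactors of peptide supply and loading, 0 were called with edgeR. With log2 fold changes above 0 in 11 of them, their median was 0.11, against 0.014 over all tested genes. In 5 the SOX17KO libraries lay above every Control library, as in 14.0% of tested genes, and in 1 below. DESeq2 called 3 higher (Erap1, Psmb10 and Psme2), and edgeR called these 3 and Lnpep without SOX17KO replicate 1. DESeq2 called 10.7% of all genes it tested and 5.75% as higher, against the 22.8% and 12.2% called without that library. Psme1 and Psme2 encode the proteasome activator that interferon gamma induces. Psme1 was at 68.5, 59.9 and 52.2 CPM in SOX17KO, against 50.03, 47.8 and 44.2 CPM in Control (log2 fold change 0.35, edgeR adjusted p = 0.135). Psme2 was at 94.8, 75.6 and 74.8 CPM in SOX17KO, against 61.8, 58.1 and 63.0 CPM in Control (log2 fold change 0.42, edgeR adjusted p = 0.0726). Neither pair of groups overlapped. Erap1, which trims peptides to class I length in the endoplasmic reticulum, was at 46.4, 26.9 and 25.4 CPM in SOX17KO, against 16.0, 20.3 and 19.6 CPM in Control (log2 fold change 0.82, edgeR adjusted p = 0.102). Its log2 fold change was 0.49 without SOX17KO replicate 1. Calr, the calreticulin gene and the most abundant cofactor, was at 991 ± 78.7 CPM in SOX17KO and 962 ± 44.7 CPM in Control (edgeR adjusted p = 0.870). None of the 3 standard catalytic subunits was called. Psmb7, the most abundant in CPM though not per length, was at 180 ± 5.55 CPM in SOX17KO and 172 ± 15.8 CPM in Control.

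**Figure D4:**
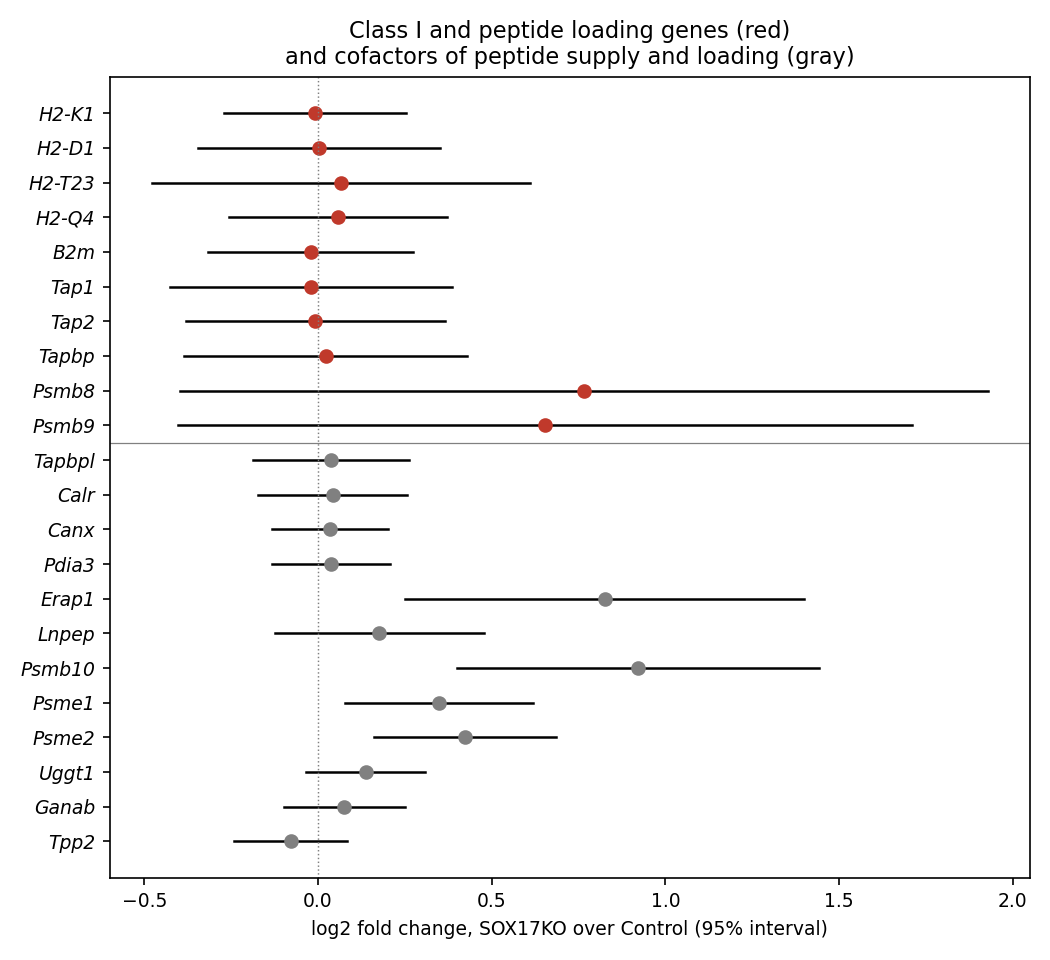
Log2 fold change of SOX17KO over Control with its 95% interval from edgeR, for the 10 genes in red and 12 cofactors in gray. The intervals of all 10 genes span 0, while those of Erap1, Psmb10, Psme1 and Psme2 lie above 0 before adjustment for multiple testing.

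Upstream of these genes, the list of interferon receptors and kinases, which also holds Socs1 and Socs3, had 9 tested genes. Of these 2 rose and none fell, where 3.67% of all tested genes rose. Socs3 had the largest log2 fold change of the list, 1.68 (edgeR adjusted p = 0.127). Its level was 7.94, 33.2 and 37.7 CPM in SOX17KO, against 9.95, 7.37 and 7.19 CPM in Control. DESeq2 called Socs3 higher, as did edgeR without SOX17KO replicate 1 (5.75% and 12.2% of tested genes were called higher in these fits). Ifngr1, which binds interferon gamma at the cell surface, was at 66.6, 55.9 and 60.2 CPM in SOX17KO, against 45.8, 47.0 and 43.9 CPM in Control (log2 fold change 0.42, edgeR adjusted p = 0.0377). Jak2, a kinase of interferon gamma receptor signalling, was at 47.7, 43.0 and 49.9 CPM in SOX17KO, against 36.4, 35.4 and 33.4 CPM in Control (log2 fold change 0.42, edgeR adjusted p = 0.0380). Jak1, the most abundant of the list, was at 153 ± 9.76 CPM in SOX17KO and 141 ± 3.03 CPM in Control (edgeR adjusted p = 0.506). Of 18 transcription factors that act on class I promoters 17 were tested, and 1 rose and none fell. That share is near the 6.85% called over all tested genes. In 6 the SOX17KO libraries lay above every Control library and in 0 below, against 14.0% and 14.2% of tested genes. DESeq2 called 3 higher (Irf1, Nfkb1 and Rfx5), where it called 5.75% of its genes as higher. Without SOX17KO replicate 1, edgeR called these and Stat3 higher and Nfya lower, in a fit that called 22.8% of tested genes. Irf1, which binds the interferon-response motif, was at 68.5, 41.9 and 48.0 CPM in SOX17KO, against 30.6, 28.2 and 27.6 CPM in Control (log2 fold change 0.88, edgeR adjusted p = 0.0342). These 3 genes were not called without any one Control library, without SOX17KO replicate 3 or with library totals only (highest edgeR adjusted p 0.194 for Ifngr1, 0.199 for Jak2 and 0.162 for Irf1). Rfx5, a subunit of the complex on class I and class II promoters, was at 20.5, 20.8 and 17.8 CPM in SOX17KO, against 15.3, 13.2 and 15.3 CPM in Control (edgeR adjusted p = 0.0739). Stat3, the most abundant factor, was at 172 ± 29.9 CPM in SOX17KO and 144 ± 11.5 CPM in Control (edgeR adjusted p = 0.362), and passed the test when SOX17KO replicate 1 was left out (edgeR adjusted p = 0.00600). The untested factor was Nlrc5, with 6 counts over the SOX17KO libraries and 3 over the Control libraries. No ligand was abundant: Ifng had 3 counts in SOX17KO and 0 in Control, and Ifnb1 had 0 in every library. Ifne, the only tested interferon gene, was at 1.78 ± 1.07 CPM in SOX17KO and 3.13 ± 0.224 CPM in Control (edgeR adjusted p = 0.345).

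**Figure D5:**
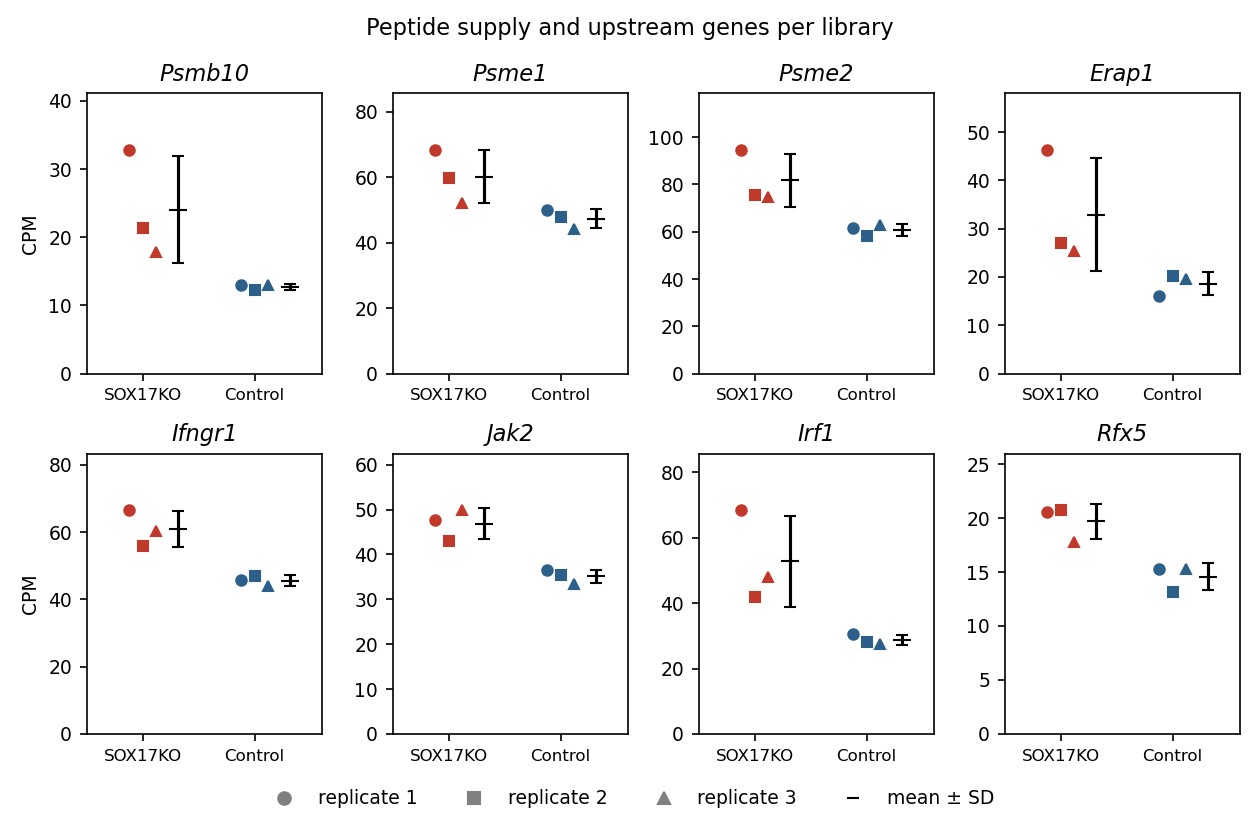
CPM per library of 4 peptide supply genes and 4 genes of interferon signalling and promoter binding, with SOX17KO in red, Control in blue and bars for mean ± SD (n = 3). The genes were chosen with their values known, so the SOX17KO libraries lie above Control in all 8 panels by choice (14.0% of all tested genes do), and of the 8 only Ifngr1, Jak2 and Irf1 passed the edgeR test.

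Of 36 other class I and class I-like genes 32 were in the table and 17 tested, of which 1 rose and 1 fell, where 6.85% of all tested genes were called, with a median log2 fold change of -0.07. H2-Q10, a secreted class I chain best known from liver, was at 0.748, 2.04 and 2.60 CPM in SOX17KO, against 0.264, 0.242 and 0.324 CPM in Control (log2 fold change 2.64, edgeR adjusted p = 0.0294). It shares sequence with other Q region genes and was not called without any one library other than SOX17KO replicate 1, nor with limma-voom (highest adjusted p 0.153). Azgp1, a soluble class I-like protein gene, was at 0.392 ± 0.0470 CPM in SOX17KO and 1.47 ± 0.106 CPM in Control (log2 fold change -1.89, edgeR adjusted p = 0.00845). It was not called without any one Control library (highest edgeR adjusted p 0.0679). H2-T9, the most abundant of this list, was at 17.1 ± 0.986 CPM in SOX17KO and 19.3 ± 2.16 CPM in Control (edgeR adjusted p = 0.487).

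None of 11 class II presentation genes was abundant enough to test. Together they reached 0.790 to 1.68 CPM in SOX17KO and 0.832 to 0.957 CPM in Control. Among 16 measured immune cell markers, 6 were at 0 in every library and 3 were tested, of which 1 rose. That gene was Cd14, at 33.9 ± 6.42 CPM in SOX17KO and 20.1 ± 0.515 CPM in Control (log2 fold change 0.76, edgeR adjusted p = 0.0256), and the list summed to 42.0 to 46.0 CPM in SOX17KO and 28.5 to 31.9 CPM in Control. Ptprc, which every leukocyte expresses, was at 0.449 ± 0.158 CPM in SOX17KO and 0.353 ± 0.159 CPM in Control, and the T cell marker Cd3e was at 0. The remaining tested marker, Cd68, was at 9.89 ± 4.61 CPM in SOX17KO and 9.06 ± 1.42 CPM in Control (edgeR adjusted p = 0.914). Cd68 was called higher without SOX17KO replicate 1, in a fit that called 12.2% of tested genes as higher. Fibroblast markers summed to at most 0.840 CPM in SOX17KO and 0.152 CPM in Control, with Acta2 the most abundant, and 4 of the 10 were at 0. Endothelial markers summed to 3.78 to 4.10 CPM in SOX17KO and 3.01 to 4.07 CPM in Control, most of it from Vwf and Tie1, with 1 of the 7 at 0. The part of other cell types in the class I levels was not tested. Of 9 tested epithelial markers 3 rose, where 3.67% of all tested genes did, and none fell: Lgr5, Cldn7 and Epcam (edgeR adjusted p = 0.00170, 0.0218 and 0.0309). Cd14, Cldn7 and Epcam were not called without any one Control library, Cd14 and Epcam also without SOX17KO replicate 2, and Epcam also without SOX17KO replicate 3 (highest edgeR adjusted p 0.134 for Cd14, 0.142 for Cldn7 and 0.196 for Epcam). Krt19, the most abundant, was at 4714 ± 1083 CPM in SOX17KO and 5992 ± 269 CPM in Control (edgeR adjusted p = 0.328), with every SOX17KO library below Control. Krt20, the untested marker of the list, was at 0.0955 ± 0.0634 CPM in SOX17KO and 0.404 ± 0.153 CPM in Control.

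For the 3 genes with the widest profiles, the most similar tested genes were sought by the root mean square difference of their log2 CPM from the Control mean over the 6 libraries. For Psmb8 these were Rbp7, Fam171a2 and Slc10a5 (differences 0.091, 0.13 and 0.16), all of them at lower mean levels than Psmb8. For Psmb9 they were Cntnap1, Ptger4 and Mical2 (0.16, 0.18 and 0.19), each highest in SOX17KO replicate 1. For H2-T23 they were Nr3c2, Trex2 and Elmo3 (0.056, 0.057 and 0.058), each lowest in SOX17KO replicate 1 and higher in the other SOX17KO libraries than in Control. With 12137 tested genes and 6 libraries such likeness is a description only.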

How the data were processed

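Per the labels' protocols, libraries were strand-specific and prepared from poly(A)-selected RNA. Per the submitters' processing notes, Bowtie, RSEM and the mouse build mm9 were used, with versions, annotation and strand setting not given here. The authors deposited expected counts, estimated reads per gene, for 23224 genes in 6 columns, each matched to 1 library by name. Values were rounded and fitted with edgeR 4.0.16 in R 4.3.3 (quasi-likelihood F test, robust, TMM factors, filterByExpr with a minimum count of 10 and a minimum total of 15, 1 coefficient for genotype, Benjamini-Hochberg adjustment, threshold 0.05). Standard errors are the size of the log2 fold change over the square root of F, and intervals are 95%. Log2 CPM used a prior count of 2. Rounding tolerance for a whole value was 0.001. In a simulation of SOX17KO against Control over 12038 genes, the test recovered 68% of 2-fold and 93% of 4-fold changes, with 7 false among 168 calls. These shares pool the 200 changed genes and are not a recovery rate for genes with as few counts as Psmb8 and Psmb9. The intervals come from the edgeR fit and cover the spread between libraries as well as counting error. Reads carried no molecular identifiers.

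The members and gene lists were chosen with earlier results of these data known. Named were all members, Sox17, up to 4 called genes and the most abundant tested gene of each list, and the 3 genes most alike in pattern to the 3 widest members; any further gene was chosen with its values in view. Alternatives were RLE factors, library totals, no filter, at least 1 CPM in 3 libraries, DESeq2 1.42.0, limma-voom (limma 3.58.1), no rounding, a block for replicate number, and leaving out each library. For genes outside the members these alternatives were added after seeing the data. A further promoter motif is not reported here. Motifs and transcript windows were computed in Python 3.11.15, alignments with Biopython 1.88 and figures with matplotlib 3.10.9.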

Additional observations from a re-analysis of the deposited data

How the results depend on the processing

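Counts of calls moved most. Against 831 genes called, DESeq2 called 1439, the fit with the replicate block 380, and fits without 1 library 184 to 2781, the lowest without Control replicate 2 and the highest without SOX17KO replicate 1. The number of the 10 class I and loading genes called stayed at 0, except for 1 without SOX17KO replicate 1, so fits without 1 library gave 0 to 1. Of 139 refits of single genes among the 10, 107 kept sign and side of the threshold and 31 changed sign without being called. H2-D1 went to -0.00056 with RLE factors, -0.015 with no filter, -0.0020 with DESeq2, -0.017 with limma-voom and -0.018 with the block. With library totals only, H2-K1 was 0.0029, B2m 0.0036 and Tap2 0.013. Tap2 was 0.020 with limma-voom and 0.0028 with the block, and Tapbp -1.7e-05 with the block. Without 1 library, log2 fold changes ran from -0.081 to 0.097 for H2-K1, -0.17 to 0.13 for H2-D1, -0.12 to 0.30 for H2-T23, -0.013 to 0.18 for H2-Q4, -0.17 to 0.064 for B2m, -0.12 to 0.055 for Tap1, -0.15 to 0.086 for Tap2, -0.19 to 0.14 for Tapbp, -0.011 to 0.11 for Psmb7, -0.0053 to 0.10 for Calr and -0.14 to 0.030 for Vwf. The cause was not tested. Sox17 was called higher without SOX17KO replicate 1 (log2 fold change 0.34, edgeR adjusted p = 0.0102). With the block, Azgp1, Ifngr1, Jak2, Cd14, Cldn7, Epcam and Flot1 were not called (edgeR adjusted p = 0.0546, 0.152, 0.163, 0.0594, 0.119, 0.175 and 0.0945), nor were Jak2 and Epcam with no filter (0.0513 and 0.0617) or Flot1 with limma-voom (0.0548). Deviations of same-numbered libraries correlated at -0.19, -0.047 and -0.18, so no pairing by replicate number showed. These correlations rest on 3 libraries per group, each group centred on its mean, and cannot settle whether the samples are paired. Psmb8 and Psmb9 had as few as 13 and 20 counts in a library, which limits their precision.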

Other observations

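A pair of closely related genes of the Q region moved in opposite ways between libraries. In replicate order, H2-Q7 was at 0.339, 3.25 and 4.01 CPM in SOX17KO, against 1.33, 0.496 and 0.482 CPM in Control. H2-Q9 was at 0.744, 0 and 0.0022 CPM in SOX17KO, against 0.130, 0.638 and 0.494 CPM in Control. Neither gene was called (edgeR adjusted p = 0.335 for H2-Q7 and 0.849 for H2-Q9), and H2-Q9 had only 49.45 counts over all libraries. Without SOX17KO replicate 1, H2-Q7 was called higher and H2-Q9 lower, in a fit that called 22.8% of tested genes. Summed over H2-Q6, H2-Q7, H2-Q8 and H2-Q9, the level was 3.16, 5.80 and 7.52 CPM in SOX17KO, against 3.33, 2.87 and 2.27 CPM in Control. In GENCODE M21, 25.1% of the 50-base windows of H2-Q7 occur in another gene of the table, and 19.3% in H2-Q6. Sharing with H2-Q9 was not measured.

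Other genes of the chromosomal region around the class I genes were mostly not called. Of 27 tested, 1 rose and none fell, close to the 3.67% of all tested genes that rose, with a median log2 fold change of 0.03. The gene that rose was Flot1, a membrane raft scaffold gene, at 13.2, 21.4 and 21.0 CPM in SOX17KO, against 10.096, 8.32 and 9.09 CPM in Control (log2 fold change 1.01, edgeR adjusted p = 0.0307). It was called only with all 6 libraries or without SOX17KO replicate 1 among the fits without 1 library (highest edgeR adjusted p 0.151). Rps18, a ribosomal protein gene and the most abundant of the list, was at 987 ± 118 CPM in SOX17KO and 925 ± 66.2 CPM in Control (edgeR adjusted p = 0.739).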
